A study of Cercocebus atys with 16 samples.

Results

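Transcripts of glucose uptake, glycolysis, lactate handling, the pentose phosphate pathway, pyruvate entry and the tricarboxylic acid (TCA) cycle were followed in double-negative T cells before and after stimulation. A list of 40 genes was matched to the gene name column of the array files, and 30 of the 40 had a probe there, with 72 probes between them among 43603 distinct probes on the array. A further 9 genes (PFKP, PFKL, PGLS, TKT, TALDO1, PDK1, PDK3, CS and MDH2) were named only in the description of a probe and are given apart, marked as description-named and left out of the counts. PDHA1 was not analysed here. All 30 genes, like the 9 others, passed the filter on low signal, which kept 23073 array features for the test. A feature is 1 probe per gene symbol, the brightest, or a probe without a symbol.

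The cells came from the blood of 4 sooty mangabeys (Cercocebus atys), each infected with SIV, the simian immunodeficiency virus. The labels give a normal CD4 status for the animals FNV and FKN and a low one for FBR and FTV. T cells were taken with magnetic beads by removing cells with CD4, then CD8 and CD16, and selecting CD3, and the labels give a purity above 98%. After a night of rest, cells of each animal were kept without stimulus or received anti-CD3 (3 mg/ml as labelled) and anti-CD28 (1 mg/ml as labelled) for 4 hours, a combination that mimics antigen by triggering the T cell receptor together with costimulation. Each animal had 4 arrays read in 2 channels, of which 2 compared the conditions in opposite dye orientations and 2 held a single condition in both channels (self-self). The array design is for the rhesus macaque, and species differences under a probe can weaken its signal in mangabey RNA. The labels do not say whether the samples were repeated within an animal, so SDs and p-values measure the spread between these 4 animals.

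Glycolysis splits glucose into pyruvate, which is either reduced to lactate and exported or taken into mitochondria and oxidised in the TCA cycle. The pentose phosphate pathway branches off the first product of glycolysis and makes ribose phosphate for nucleotides and reducing power for biosynthesis. Activated T cells are known for taking up more glucose and releasing lactate even when oxygen is present, and several steps are run by alternative isoforms encoded by separate genes.

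The isoforms can be read apart only as far as their probes differ in sequence. Each probe is 60 bases long, and stretches of 30 bases are printed as the files give them, with positions on rheMac2 and the strand taken from the order of the coordinates. Between the probes used for the 11 isoform pairs, the longest run of letters in common was 4 to 8 bases, against a median of 6 over all 741 pairs of listed genes. The stretches of 4 pairs whose responses are compared further on follow, with that longest shared run in capitals.
HK2, chr13:75137691-75137750, plus strand: acgtggctttGCTTTGTGtaatatacatgg
HK1, chr9:67623823-67623882, minus strand: aatttcccaccGCTTTGTGagccatgtcat
ENO1, chr1:11900072-11900131, minus strand: caagtgtctggaGTCATgtgagcctcgtgt
ENO2, chr11:7110035-7110094, plus strand: agaatgggaaggGTCATaaaaagggccttg
LDHA, chr17:57796222-57796281, plus strand: acccccaataaacCTTGAACAgtgaaaaaa
LDHB, chr11:21985256-21985315, minus strand: atgcttgcaatatgagctCTTGAACAaata
SLC16A1, chr1:115892226-115892285, minus strand: tgttggatgcattcttactcTCCACacaaa
SLC16A3, chr16:77719869-77719928, plus strand: gggacagctcctTCCACccctggaaggtgg
With shared runs this short, no partner probe is a near copy of the other. Only the probes were compared, so whether a probe also matches its partner's transcript elsewhere was not tested. No gene annotation of that build was used here, so the exon or UTR in which a probe lies is not given.

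Several genes have probes at more than 1 place in that genome, which bears on what their values measure. The LDHA probe named in the gene name column lies on chromosome 17, whereas 2 probes described as LDHA lie on chromosome 14, and the PKM2 probes lie on chromosomes 7 and 13. Stretches of the first 30 bases of these and of the IDH3A probes, whose responses differ, are shown with no base in capitals.
LDHA, chr14:53481243-53481302, minus strand: aggctacaacaggattttagttggaggttg
LDHA, chr14:53481070-53481129, minus strand: tgtgtagtcctaaactggttagtgtgaaat
PKM2, chr7:50845509-50845568, minus strand: gggtcaggaaacagctagagagttaggggc
PKM2, chr13:114213070-114213129, plus strand: agataatcagcaaaatcgagaatcatgagg
IDH3A, chr7:57205507-57205566, plus strand: tttaagctgctgctttctctgtttcattgg
IDH3A, chr7:57204112-57204171, plus strand: atggacaccacataaacctctatttagaat
GAPDH is a different case, since 7 of its 8 probes overlap another GAPDH probe by 44 to 58 bases with 1 to 5 mismatches. The chromosome 11 probe used for GAPDH and a probe on chromosome X are shown over 30 of the 47 bases they share, with the 3 mismatches in capitals.
GAPDH, chr11:6689273-6689439, plus strand: TcaagctcatttcctggtatGacaaCgaat
GAPDH, chrX:44276585-44276644, minus strand: CcaagctcatttcctggtatAacaaTgaat
Counted from 1 at the left end of the printed stretch, the differences are T1C, G21A and C26T. Near-identical probes of this kind are not independent measurements of a gene.

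The arrays of 1 animal stood apart. The 4 arrays of FNV were scanned earlier and on another scanner than the 12 others. Its self-self array of stimulated cells had 33.3% and 37.6% of spots well above background in its channels. The other FNV arrays had 52% to 64.8%, against 57% to 65% on the later arrays. That self-self array enters FNV's stimulated levels but not its log2 ratios. Across the tested features, FNV's responses correlated with those of the other animals at 0.68 to 0.75, and the other 3 animals with each other at 0.88 to 0.91. Markers of other blood cells also differed: the summed linear level of the 7 measured monocyte markers of 10 listed (CD14, LYZ, CSF1R, FCN1, S100A8, S100A9 and VCAN) was 106000 in unstimulated FNV cells against 5050 to 10400 in the other animals, and 36100 against 3930 to 6280 after stimulation. The 3 measured B cell markers of 6 listed summed to 12800 in FNV against 1900 to 3330 unstimulated, and to 2100 against 618 to 825 stimulated, while the 6 measured T cell markers of 7 listed summed to 52300 against 85700 to 87200 unstimulated and 78200 against 114000, 102000 and 130000 stimulated. The sum of the 5 measured erythroid and platelet markers of 6 listed went the other way, at 5790 in unstimulated FNV cells against 27600 to 46200. That gap lay in the haemoglobin genes HBA2 (12.16 against 14.16 to 14.24) and HBB (8.84 against 12.92 to 14.67). The platelet markers PPBP (8.92 against 8.42 to 9.77) and PF4 (7.53 against 7.46 to 8.37) lay within the range of the other animals. LYZ weighed most in the monocyte sum of FNV, at an unstimulated log2 level of 16.48 against 12.67, 10.49 and 10.57 in FKN, FBR and FTV. The other monocyte markers were also highest in unstimulated FNV cells, but some by little, such as S100A9 at 12.73 against 12.34 in FTV. All 7 monocyte markers were well above background in 16 of 16 unstimulated channels. CD3D had a log2 level of 14.01 to 14.99 and CD3E of 12.15 to 13.34 in unstimulated cells, and CD4, which the gate removes, was well above background in 16 of 16 unstimulated channels at 9.21 to 9.53. Of the 3 measured NK cell markers of 5 listed, the sum was 4930 in unstimulated FTV and 292 to 512 elsewhere. Each listed gene is therefore given by animal, and the counts of calls also for FKN, FBR and FTV alone. The labels of 1 FNV ratio array contradict each other on the RNA in channel 2, and its title was followed.

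Stimulation raised 11 of the 30 genes and lowered 7, while 12 did not pass the test (limma against 0 on the per-animal log2 ratios, Benjamini-Hochberg adjusted p under 0.05 over all features). The 11 risers make up 36.7% of the 30, against 19.1% of all tested features, and the 7 that fell make up 23.3%, against 21.0%; in either direction 40.1% of all features were called. A change of at least 2-fold was called for 6 of the 30 (20%; SLC2A3, HK2, LDHA, SLC16A1, ENO2 and IDH1), against 6.82% of all features. The median log2 ratio over the 30 was 0.19, and -0.01 over all features. Markers of other cells moved with stimulation too: 4 of the 7 measured monocyte markers and 2 of the 3 B cell markers fell and none rose, with each of these 6 lower in all 4 animals, such as CD79B at -2.60 and S100A8 at -0.97. Their part in the changes of the 30 genes was not tested. In bulk RNA, fewer cells of a type and less RNA per cell cannot be told apart. With FNV left out, which also leaves the later scan only, 16 genes rose and 8 fell, against 24.5% and 25.9% of all features; PFKFB3, TPI1, GAPDH, ENO1, PKM2 and SLC16A3 were added and no call was lost. Leaving out FKN gave 7 rises and 4 falls with 21.5% of all features called, leaving out FBR 7 and 6 with 22.9%, and leaving out FTV 8 and 6 with 26.2%. Median centring in place of loess gave 5 rises and 2 falls, all among the same 18 genes, with 17.9% of all features called. It ended the calls of HK2, GPI, PFKM, PGAM1, RPE, IDH1, IDH2, IDH3A, OGDH, SUCLG1 and FH, and of the description-named PFKL and CS.

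**Figure D1:**
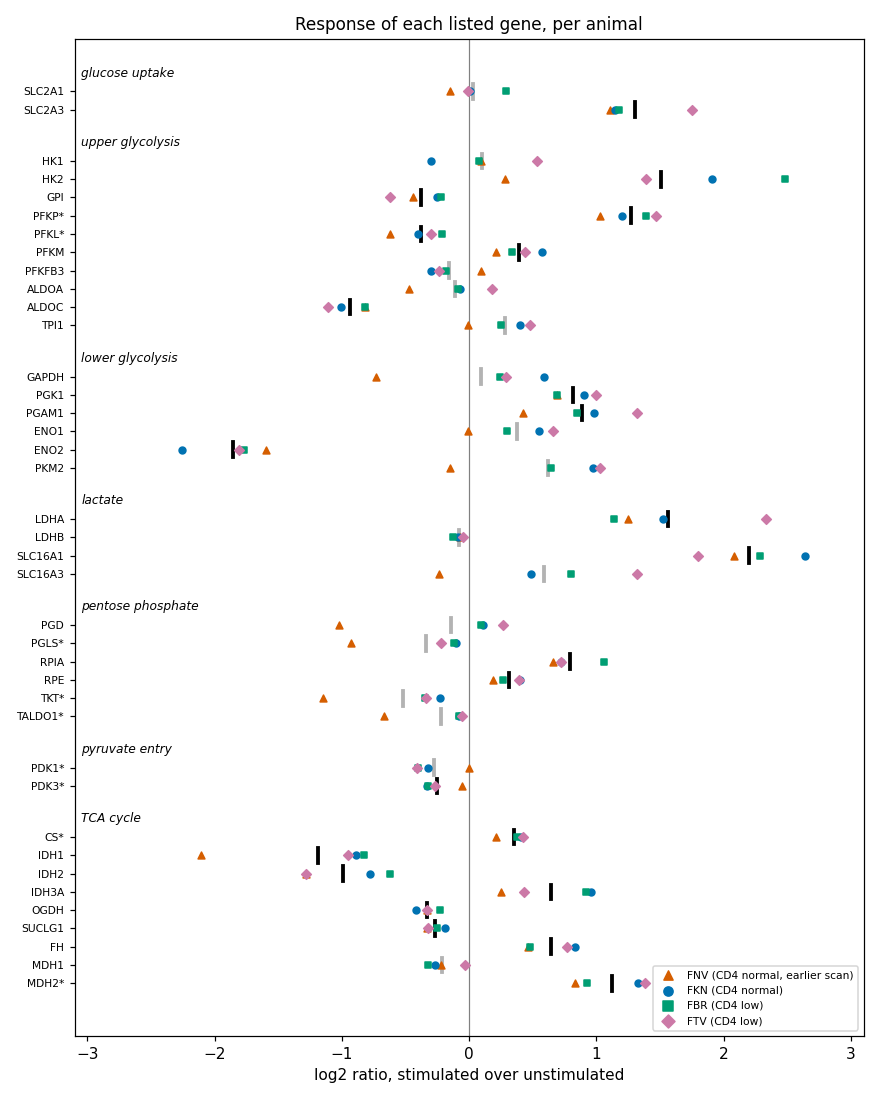
Log2 ratio of stimulated over unstimulated RNA (x axis) for each listed gene (rows, grouped by pathway step), 1 symbol per animal. Vertical bars are means over the 4 animals, black where the gene rose or fell and grey where it did not pass; an asterisk marks a description-named gene. SLC16A1 reached a mean of 2.20 and ENO2 a mean of -1.86, and FNV sits to the left of the other 3 animals in GAPDH, PKM2, SLC16A3, PGD and IDH1.

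Of the glucose transporters, SLC2A3 (GLUT3, the high-affinity transporter) rose and SLC2A1 (GLUT1, the widespread basal transporter) did not pass. The SLC2A3 log2 level was 10.7, 11.93, 11.58 and 11.73 in unstimulated FNV, FKN, FBR and FTV and 11.81, 13.08, 12.67 and 13.61 after stimulation. Each animal rose, but the levels of the conditions overlapped, because stimulated FNV cells stayed below unstimulated FKN cells. The log2 ratios were 1.11, 1.15, 1.18 and 1.75, a mean of 1.30 ± 0.30 (SD, n = 4; 2.46-fold; limma adjusted p = 0.0015). A second bright SLC2A3 probe gave 1.46, and 2 dim ones were well above background in no channel. SLC2A1 had ratios of -0.15, 0.01, 0.29 and -0.01, with an adjusted p of 0.765 from limma. Its probe was dim, at log2 levels of 7.15 to 7.92, and above background in 14 of 16 stimulated channels.

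Among the enzymes that trap glucose, HK2 (the inducible hexokinase) rose and HK1 (the constitutive hexokinase) did not pass. The HK2 level in unstimulated cells was 11.08 in FNV, 8.63 in FKN, 8.49 in FBR and 8.08 in FTV, and after stimulation 11.28, 10.40, 10.82 and 9.38. FNV started above the stimulated level of every other animal and moved least, with a ratio of 0.28, against 1.91, 2.48 and 1.39. The mean was 1.51 ± 0.94 (SD, n = 4; 2.85-fold; limma adjusted p = 0.0237), and 1.93 ± 0.55 over the 3 later animals (3.80-fold; adjusted p = 0.00288). A second, dimmer HK2 probe gave 1.08. Leaving out FKN, FBR or FTV in turn ended the call. FNV was also the animal with the highest monocyte marker sum, whose part in the HK2 level was not tested. HK1 ratios of 0.09, -0.30, 0.08 and 0.53 fell on both sides of 0.

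The genes between glucose 6-phosphate and the split into trioses moved in different directions. GPI, which converts glucose 6-phosphate to fructose 6-phosphate, fell with ratios of -0.44, -0.25, -0.22 and -0.62 (mean -0.38 ± 0.19; limma adjusted p = 0.0208). Its 2 other measured probes gave -0.12 and 0.03 and did not pass, and the call on the brightest ended without FKN or FTV. PFKM, the muscle form of phosphofructokinase and of the committed step, rose by 0.39 ± 0.15 (0.21, 0.57, 0.34 and 0.44; adjusted p = 0.0122 from limma), a call that ended when FKN, FBR or FTV was left out; its second probe gave 0.14 and did not pass. Of the description-named forms, PFKP (platelet form) rose from levels of 12.12, 12.51, 12.44 and 12.60 to 13.12, 13.75, 13.84 and 14.15, with no overlap. The PFKP ratios were 1.03, 1.20, 1.39 and 1.47, a mean of 1.27 ± 0.20 (2.41-fold; limma adjusted p = 0.000796), and its second probe gave 1.47. PFKL (liver form) went the other way, with -0.62, -0.40, -0.21 and -0.30 and a mean of -0.38 ± 0.17 (limma adjusted p = 0.0178), a call that ended without FKN or FTV. PFKP and PFKM lay above 0 and PFKL below 0 in every animal.

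PFKFB3, which makes the activator of phosphofructokinase, had ratios of 0.09, -0.30, -0.18 and -0.24 and did not pass (adjusted p = 0.172, limma). The 5 measured PFKFB3 probes ranged from -0.16 to 0.03. ALDOC, the brain-type aldolase, fell from levels of 12.05, 12.14, 12.21 and 11.66 to 11.17, 11.10, 11.37 and 10.50, without overlap. Its ratios of -0.82, -1.01, -0.82 and -1.11 had a mean of -0.94 ± 0.14 (limma adjusted p = 0.000936), lower in 4 of 4 animals. ALDOA, the main aldolase of muscle and blood cells, had ratios of -0.47, -0.07, -0.09 and 0.18 and did not pass. TPI1, which interconverts the triose phosphates, had -0.01 in FNV and 0.40, 0.25 and 0.48 in the others. Its adjusted p was 0.0642 with all 4 animals and 0.0114 over FKN, FBR and FTV, where the mean was 0.38 ± 0.12.

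In the ATP-yielding steps, PGK1 and PGAM1 rose, ENO2 fell, and GAPDH, ENO1 and PKM2 did not pass with FNV included. PGK1, which makes the first ATP of the pathway, rose from levels of 13.82, 13.73, 13.85 and 13.03 to 14.43, 14.42, 14.48 and 13.92, each stimulated level above each unstimulated one. The PGK1 ratios of 0.69, 0.90, 0.69 and 1.00 had a mean of 0.82 ± 0.16 (1.77-fold; limma adjusted p = 0.00141), and all 5 of its probes were called upward at 0.47 to 0.83, including the one on chromosome 19. PGAM1, the phosphoglycerate mutase, had ratios of 0.42, 0.98, 0.85 and 1.32, a mean of 0.89 ± 0.37 (1.86-fold; limma adjusted p = 0.00793). Its 5 probes gave 0.89 to 0.97, although FNV's levels of 10.49 and 10.89 lay below those of the other animals in both conditions. ENO2, the neuron-type enolase, was the deepest fall among the 30 genes. Its level went from 10.58, 11.67, 11.72 and 11.86 to 8.95, 9.26, 9.95 and 9.97, with ratios of -1.60, -2.26, -1.77 and -1.81. The ENO2 mean of -1.86 ± 0.28 was a 3.63-fold fall (limma adjusted p = 0.000679), and the conditions did not overlap.

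GAPDH, the glycolytic dehydrogenase often used as a loading control, split the animals. Its ratio was -0.73 in FNV and 0.59, 0.24 and 0.29 in FKN, FBR and FTV, so the mean of 0.09 ± 0.57 did not pass (limma adjusted p = 0.747), and over the last 3 animals 0.37 ± 0.19 passed (adjusted p = 0.0251). The 8 GAPDH probes, 2 of them description-named, gave 0.08 to 0.37, and each was below 0 in FNV. ENO1, the main enolase, had -0.01 in FNV and 0.55, 0.30 and 0.66 in the others (mean 0.38 ± 0.29; limma adjusted p = 0.0578, and 0.00959 without FNV at a mean of 0.50). PKM2, the pyruvate kinase gene now named PKM, had -0.15, 0.97, 0.64 and 1.03 at its chromosome 7 probe. That probe missed the threshold (mean 0.62 ± 0.54; limma adjusted p = 0.066), whereas the chromosome 13 probe shown above passed when every probe was tested (0.80 ± 0.58; adjusted p = 0.0383). Whether these off-chromosome probes measure the named gene or another copy was not tested. Without FNV, the PKM2 mean was 0.88 ± 0.21 (adjusted p = 0.00259).

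The lactate genes held the largest rises. LDHA, the lactate dehydrogenase subunit that favours lactate formation, went from levels of 12.89, 12.53, 12.73 and 12.17 to 14.12, 13.83, 13.69 and 14.23. All stimulated levels lay above all unstimulated ones, and FTV, with the lowest start, reached the highest end. The ratios were 1.25, 1.52, 1.14 and 2.33, a mean of 1.56 ± 0.54 (2.94-fold; limma adjusted p = 0.00398). The pair of LDHA probes on chromosome 14, which share no overlap with the chromosome 17 probe, gave 1.54 and 1.55, and each animal's values at the 3 probes lay close together (1.16 to 1.25 in FNV, 1.51 to 1.55 in FKN, 1.14 to 1.16 in FBR and 2.31 to 2.35 in FTV). LDHB, the subunit that favours lactate use, had ratios of -0.07, -0.09, -0.13 and -0.05 and did not pass (adjusted p = 0.226, limma). Its 6 probes gave -0.12 to -0.06.

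SLC16A1 (MCT1, a transporter of lactate and pyruvate) rose most of the 30 genes, from a dim unstimulated signal. Its level was 7.65, 7.78, 7.49 and 7.62 in unstimulated cells and 9.63, 10.18, 9.64 and 9.34 in stimulated cells. The animals were within a narrow range before stimulation and all were higher after it. The mean of the ratios (2.08, 2.64, 2.29 and 1.80) was 2.20 ± 0.35, a 4.59-fold rise with an adjusted p of 0.000696 (limma). A second probe gave 2.09, and the dimmest, above background in only 5 of 16 unstimulated channels, gave 0.70. SLC16A3 (MCT4, the lactate exporter of strongly glycolytic cells) had ratios of -0.24, 0.49, 0.80 and 1.32, and a mean of 0.59 ± 0.65 that did not pass (limma adjusted p = 0.117). Over FKN, FBR and FTV the SLC16A3 mean was 0.87 ± 0.42 (adjusted p = 0.0138).

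**Figure D2:**
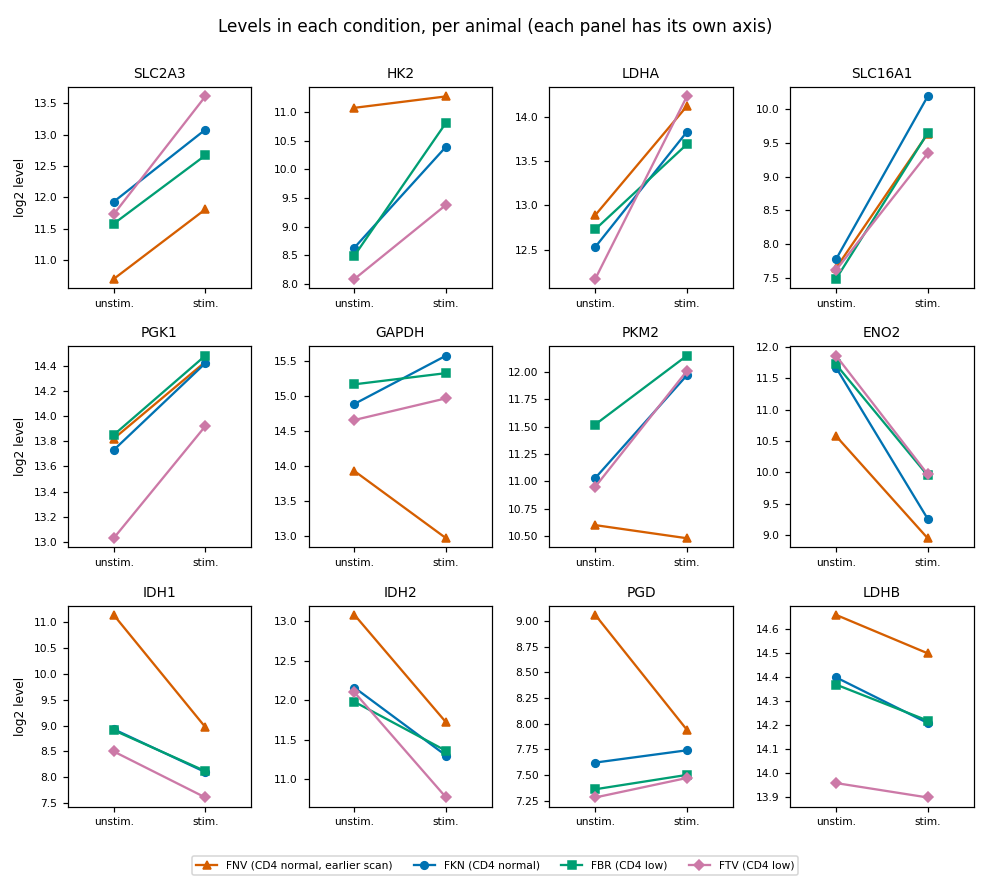
Log2 level per animal in unstimulated and stimulated cells for 12 genes, 1 line per animal; each panel has its own y axis, so levels are not compared between genes. LDHA, SLC16A1, PGK1, ENO2 and IDH2 levels did not overlap between conditions, while FNV started at 11.08 for HK2, 11.14 for IDH1 and 9.06 for PGD, above the other 3 animals.

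Across all 30 genes, 8 (PFKM, ALDOC, PGK1, ENO2, LDHA, SLC16A1, RPIA and IDH2) had levels that did not overlap between the conditions, 26.7% against 16.5% of all features. Without FNV the number was 17, against 44.7% of all features.

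In the pentose phosphate pathway, RPIA and RPE rose, and PGD and the description-named PGLS, TKT and TALDO1 did not pass. RPIA, which forms ribose 5-phosphate, went from levels of 10.05, 10.39, 10.16 and 10.22 to 11.01, 11.13, 11.28 and 10.88, with no overlap. Its ratios of 0.66, 0.72, 1.06 and 0.72 had a mean of 0.79 ± 0.19 (1.73-fold; limma adjusted p = 0.00208). RPE, which forms xylulose 5-phosphate, rose by 0.31 ± 0.10 (0.19, 0.40, 0.27 and 0.39; limma adjusted p = 0.014), and its 4 probes were all called upward at 0.21 to 0.52; the call on the brightest ended when FKN, FBR or FTV was left out. PGD, the second dehydrogenase of the oxidative branch, was measured by a probe on chromosome 18 alone. Whether that probe measures PGD or another copy was not tested. The PGD ratio was -1.02 in FNV and 0.11, 0.09 and 0.27 in the others, so the mean of -0.14 turned to 0.16 without FNV, and neither passed.

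The description-named TKT, TALDO1 and PGLS repeated that split between animals. TKT, the transketolase, had -1.15 in FNV and -0.23, -0.35 and -0.34 in FKN, FBR and FTV. Its mean of -0.52 ± 0.43 did not pass (limma adjusted p = 0.0592), and the mean of -0.30 ± 0.07 without FNV did (adjusted p = 0.0129). TALDO1, the transaldolase, had -0.67 in FNV and -0.08, -0.08 and -0.06 in the others, and PGLS, which hydrolyses the lactone formed by the first dehydrogenase, -0.93 against -0.10, -0.12 and -0.22. Neither passed with or without FNV. The median log2 ratio of the monocyte markers was also lower in FNV, at -1.46 against -0.80, -0.46 and -0.80, although S100A9 and VCAN did not fall most there; their part in the FNV values of PGD, TKT, TALDO1, PGLS and IDH1 was not tested.

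**Figure D3:**
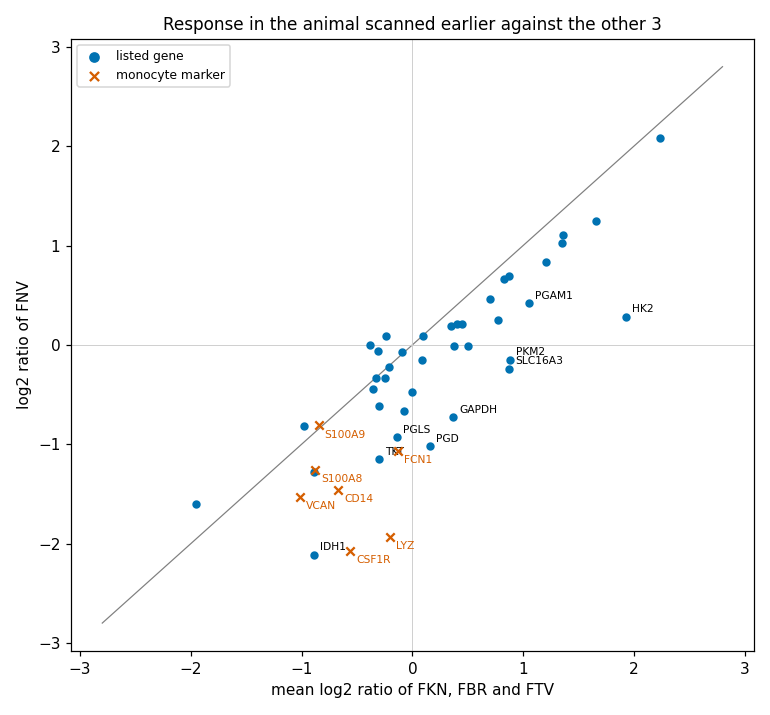
Log2 ratio in FNV (y axis) against the mean log2 ratio of FKN, FBR and FTV (x axis) for 39 listed genes (circles) and 7 monocyte markers (crosses), with the line of equal values. Genes that differ by at least 0.6 are named; HK2 lies at 0.28 against 1.93 and IDH1 at -2.11 against -0.89, whereas SLC16A1 at 2.08 against 2.24 lies near the line.

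Among the listed genes, pyruvate entry was measured only through description-named kinases of pyruvate dehydrogenase, which switch that enzyme off. PDK3 had ratios of -0.06, -0.33, -0.32 and -0.27 and fell by 0.25 ± 0.13 on the log2 scale (limma adjusted p = 0.0373), a call that ended when FKN, FBR or FTV was left out. PDK1 had 0, -0.32, -0.40 and -0.41 and lay at the threshold without passing it (adjusted p = 0.05 after rounding, limma). Over the 3 later animals both passed, PDK1 at -0.38 ± 0.05 (adjusted p = 0.00608) and PDK3 at -0.31 ± 0.03 (0.0101). These probes were dim, and the PDK1 probe was above background in 12 of 16 channels of each condition. Outside the list, 11 other genes of this step were measured, of which 4 fell and 3 rose, beside 21.0% lower and 19.1% higher among all features. PDHB (-0.51), PDP1 (-0.88), PDP2 (-0.74) and PDPR (-0.41) fell, and ME2 (1.29), PCK2 (0.63) and DLAT (0.43) rose. The PDP2 probe was very bright, at unstimulated log2 levels of 16.31 to 17.32, with uneven ratios of -0.22, -1.30, -0.34 and -1.09. Whether it measures PDP2 alone was not tested.

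The TCA cycle genes did not move as a block: of 7, IDH3A and FH rose, IDH1, IDH2, OGDH and SUCLG1 fell, and MDH1 did not pass. IDH1, the cytosolic NADP-dependent isocitrate dehydrogenase, which lies outside the mitochondrial cycle itself, fell from levels of 11.14, 8.93, 8.91 and 8.50 to 8.97, 8.10, 8.12 and 7.61. FNV had both the highest start and the steepest fall, with a ratio of -2.11 against -0.89, -0.83 and -0.95. The mean was -1.19 ± 0.61 (2.29-fold lower; limma adjusted p = 0.0138), and -0.89 ± 0.06 without FNV (1.85-fold lower; adjusted p = 0.000941). IDH2, its mitochondrial counterpart, fell from 13.08, 12.16, 11.98 and 12.10 to 11.72, 11.30, 11.36 and 10.77. Those levels did not overlap, and the ratios of -1.28, -0.78, -0.62 and -1.28 gave -0.99 ± 0.34 (1.98-fold lower; limma adjusted p = 0.00444). OGDH, the 2-oxoglutarate dehydrogenase, fell by 0.33 ± 0.08 on the log2 scale (-0.33, -0.42, -0.23 and -0.33; adjusted p = 0.00891, limma). SUCLG1, a subunit of succinyl-CoA ligase, fell by 0.27 ± 0.07 (-0.33, -0.19, -0.25 and -0.32; adjusted p = 0.0146, limma). Both small falls were present in 4 of 4 animals; the OGDH call ended without FKN, and the SUCLG1 call when FKN, FBR or FTV was left out.

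IDH3A, the catalytic subunit of the NAD-dependent enzyme of the cycle, had ratios of 0.25, 0.96, 0.92 and 0.43 and rose by 0.64 ± 0.36 (1.55-fold; limma adjusted p = 0.0203). Its second probe, on the same chromosome and with a sequence that does not overlap, gave 1.32, 1.58, 1.48 and 1.16, a mean of 1.39 ± 0.18 (adjusted p = 0.000638 with every probe tested). The call at the brighter probe ended without FKN or FBR. FH, the fumarase, rose by 0.64 ± 0.19 (0.46, 0.83, 0.48 and 0.77; 1.56-fold; limma adjusted p = 0.0043), and its second probe gave 0.62. The description-named MDH2, the mitochondrial malate dehydrogenase, rose from 14.62, 13.59, 13.97 and 13.18 to 15.35, 14.76, 14.82 and 14.41; stimulated FTV cells stayed below unstimulated FNV cells. Its ratios of 0.83, 1.33, 0.93 and 1.38 had a mean of 1.12 ± 0.28 (2.17-fold; limma adjusted p = 0.00185), whereas its cytosolic counterpart MDH1 had -0.22, -0.27, -0.32 and -0.03 and did not pass (adjusted p = 0.0595, limma). CS, the citrate synthase and entry of the cycle, also description-named, rose by 0.35 ± 0.10 (0.21, 0.41, 0.38 and 0.42; limma adjusted p = 0.00899), a call that ended without FKN or FBR.

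By step, the median log2 ratio of the gene-name-matched members was 0.67 for glucose uptake (2 genes), -0.01 for upper glycolysis (8), 0.50 for lower glycolysis (6), 1.07 for lactate (4), 0.31 for the pentose phosphate pathway (3) and -0.27 for the TCA cycle (7). The lactate median was 0.59, 1.00, 0.97 and 1.56 in FNV, FKN, FBR and FTV, and that of lower glycolysis -0.08, 0.75, 0.47 and 0.83. The TCA median kept a narrow range of -0.33 to -0.25 over the animals. With the description-named genes added, the pentose phosphate median over 6 genes was -0.18 (-0.80 in FNV), the opposite sign. The TCA median over 9 genes was then -0.21, at -0.22, -0.19, -0.23 and -0.03 in FNV, FKN, FBR and FTV. Both TCA medians include the cytosolic IDH1 (-1.19) and MDH1 (-0.21), and no median without them was computed. Of the mitochondrial members, CS, IDH3A, FH and MDH2 rose and IDH2, OGDH and SUCLG1 fell. These medians are descriptions, beside a median of -0.01 over all features.

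The difference in response between isoform partners had the same sign in all 4 animals in 9 of 11 pairs. With the FNV array of conflicting labels left out it was 8 pairs, and over the 3 animals without FTV 10. PFKP enters more than 1 of these pairs, and the share among other pairs of features was not computed. ENO1 exceeded ENO2 by 1.60, 2.82, 2.07 and 2.46 in FNV, FKN, FBR and FTV (mean 2.24 ± 0.52), and LDHA exceeded LDHB by 1.32, 1.61, 1.26 and 2.38 (1.64 ± 0.51). PFKP exceeded PFKL by 1.64, 1.59, 1.59 and 1.78, the narrowest spread of the 9 pairs (1.65 ± 0.09). SLC16A1 exceeded SLC16A3 by 2.32, 2.15, 1.49 and 0.47 (1.61 ± 0.84), so the size of that gap depended on the animal. The remaining pairs of the 9 were HK2 over HK1 (1.42 ± 1.07, and 0.19 in FNV), MDH2 over MDH1 (1.33 ± 0.23), SLC2A3 over SLC2A1 (1.26 ± 0.37), PFKP over PFKM (0.88 ± 0.20) and ALDOA over ALDOC (0.83 ± 0.39). PDK1 and PDK3 differed by -0.04 ± 0.09, with values between -0.14 and 0.06, and IDH2 and IDH1 by 0.21 ± 0.48, between -0.33 and 0.84. Over 4 animals an exact sign-flip test cannot go below p = 0.125 (two-sided), which each of the 9 pairs reached (0.153 after Benjamini-Hochberg adjustment over 11 pairs). The exact p was 0.5 for PDK1 and PDK3 and 0.625 for IDH2 and IDH1, so none of the differences passed and the values are a description.

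**Figure D4:**
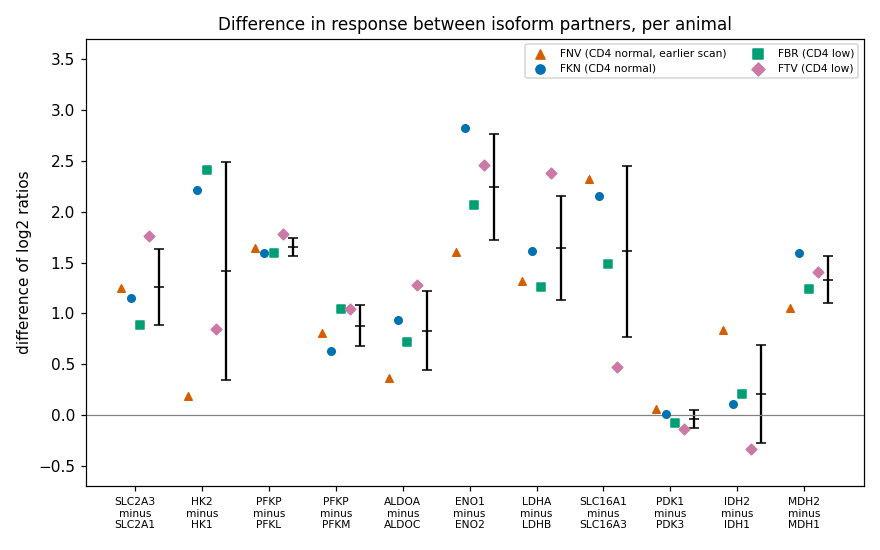
Difference of log2 ratios between isoform partners (y axis) for 11 pairs (x axis), 1 symbol per animal, with the mean and SD (n = 4) as a black mark to the right of each. All 4 animals lie above 0 in 9 pairs; PDK1 minus PDK3 and IDH2 minus IDH1 lie on both sides of 0.

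Where a gene had more than 1 measured probe, no 2 probes of it were called in opposite directions. LDHA, PGAM1, IDH2, FH and ENO1 probes gave nearly the same mean, though the IDH2 and ENO1 probes and 2 of the 5 PGAM1 probes overlap. SLC16A1, IDH3A, TKT, HK2 and GPI spread most, and in these, apart from IDH3A, the probe nearest 0 was also the dimmest of those measured.

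**Figure D5:**
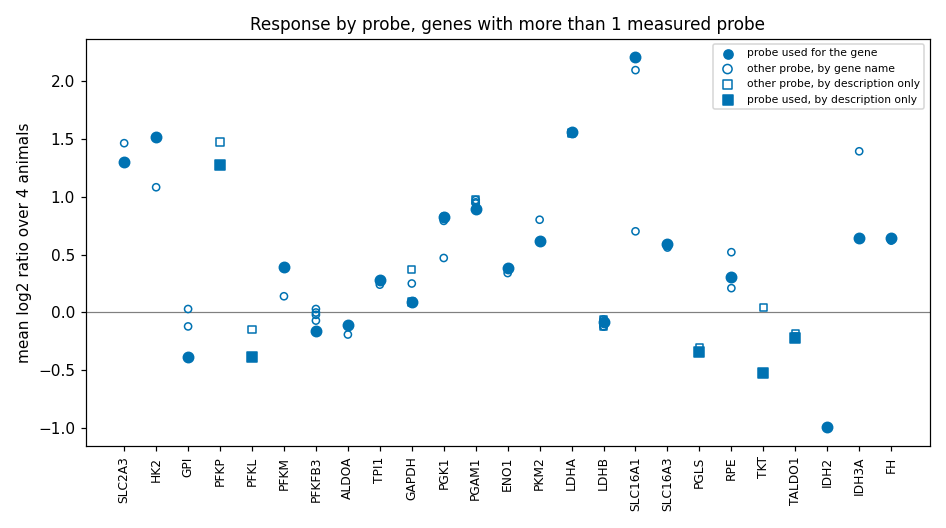
Mean log2 ratio over 4 animals (y axis) for each measured probe of the genes with more than 1 (x axis); filled symbols are the probes used, open symbols other probes, squares description-named probes. The 3 LDHA probes lie at 1.54 to 1.56, and the IDH3A probes lie apart at 0.64 and 1.39.

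The self-self arrays gave separate measurements of the same RNA. Stimulated minus unstimulated levels taken from them alone, with the animal as a replicate block, gave 10 rises and 8 falls, 17 of them shared with the 18 calls of the ratio arrays, while 30.4% of all features were called. IDH3A was lost and MDH1 was added to the falls. In the authors' deposited table of per-animal log2 ratios, all 18 called genes had a value and 0 had the opposite sign; that table gives a mean of 2.73 for SLC16A1 and 1.54 for LDHA, and of -2.01 for ENO2 over the 3 animals it lists for that gene. Sizes differed more for some genes: the authors' deposited table gives a mean of 0.68 for RPE against 0.31 here and 0.58 for PFKM against 0.39. It gives -0.50 for PDK1 against -0.28 and -0.45 for PDK3 against -0.25. For PFKFB3 it gives -0.34 over FKN, FBR and FTV, against -0.24 here over the same animals and -0.16 with FNV included.

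Other genes of the same pathways were read from a list of 65, of which 39 were measured. Of these, 10 rose, 8 fell and 21 did not pass, with a median log2 ratio of -0.01. These shares lie near those of all features, of which 19.1% rose and 21.0% fell. By group, 3 rose and 2 fell of 15 in glucose transport and glycolysis, 3 and 0 of 5 in the pentose phosphate pathway, 3 and 4 of 11 in pyruvate entry, and 1 and 2 of 8 in the TCA cycle. The largest rise was RBKS, the ribokinase that phosphorylates free ribose, at 2.41, 3.43, 2.76 and 3.22 (mean 2.95 ± 0.46; limma adjusted p = 0.000648). ME2, the mitochondrial malic enzyme that turns malate into pyruvate, rose by 1.29 ± 0.20 and PCK2, the mitochondrial phosphoenolpyruvate carboxykinase, by 0.63 ± 0.31 (limma adjusted p = 0.000772 and 0.015). The largest falls were in BPGM, which makes 2,3-bisphosphoglycerate (-1.44 ± 0.64), SLC16A7, another monocarboxylate transporter (-1.04 ± 0.45), and ACO1, the cytosolic aconitase (-0.94 ± 0.47). Their limma adjusted p-values were 0.00855, 0.00883 and 0.013. FNV was the least changed animal in BPGM (-0.54) and SLC16A7 (-0.39) and the most changed in ACO1 (-1.61).

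CD4 status was compared as 2 low against 2 normal animals. None of the 30 genes was called on the response, the unstimulated level or the stimulated level, and neither was any other feature (0% of 23073 in each of the 3 comparisons; limma). At an unadjusted p under 0.05, 493, 388 and 499 features were counted, and 1, 0 and 2 of the 30 genes. SLC16A3 had a larger response in the low animals (1.06 against 0.12, a difference of 0.94 with an SE of 0.32; limma adjusted p = 1). Its stimulated level was higher there by 0.85 (SE 0.31), as was that of ENO2 by 0.86 (SE 0.22), with an adjusted p of 0.84 each. The values of SLC16A3 by animal were -0.24 and 0.49 in FNV and FKN and 0.80 and 1.32 in FBR and FTV. Leaving out any animal leaves 1 in a group, so calls from those fits are not read. Without FKN, FNV stands alone for normal status, and CD4 status and scan batch cannot be told apart.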

How the data were processed

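The authors deposited unnormalised scanner output for 16 arrays, with linear intensity of each spot and of its local background; the file headers name Agilent Feature Extraction 10.7.3.1. The same deposited files carry that software's log10 ratio of red over green. A further deposited table lists a log2 ratio for each animal, which its header calls normalised; the submitters' processing notes list limma but do not say for which step. Its columns correlated with the ratios computed here at 0.88 to 0.92, with slopes of 1.20 to 1.27. The column medians were 0.06, 0, 0 and -0.01. The positive correlations give its direction as stimulated over unstimulated; its background method and centring are unknown.

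Signals were corrected with normexp (offset 50) and normalised by loess within each array in limma 3.58.1 (R 4.3.3, statmod 1.5.0, version 1.17.8 of data.table; Python 3.11.15 and matplotlib 3.10.9 for drawing). Control and outlier spots (at most 51 outliers per array) had weight 0, and no spot was saturated. Dye-swapped arrays of an animal, which hold the same 2 RNAs (correlation 0.91 to 0.93), were averaged with the sign of 1 turned, so n = 4. The filter required a signal well above background in the channel of 1 condition on each ratio array, for at least 2 of the animals. For levels, arrays were scaled with Aquantile and the 4 channels of an animal and condition averaged. Gene names were those of the newer annotation edition in the files, and of the older where the newer gave no symbol (18.5% of spots differ between editions). lmFit and eBayes tested ratios against 0 and CD4-low minus CD4-normal, with Benjamini-Hochberg adjustment over all 23073 features; the code was tested on simulated data. All listed genes with a probe are named. Of the other pathway genes, the 3 largest rises and 3 largest falls past the threshold are named, and every called gene of pyruvate entry. Each slide holds 1 animal, so slide and animal cannot be told apart; the labels' replicate numbers are the animals, so each ratio is paired within an animal. The number of arrays limits the precision. The members and lists were chosen with earlier results of these data known, and the description-named probes were picked after the files were read.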

Additional observations from a re-analysis of the deposited data

Results flagged for a closer look

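In groups of 4 animals, 1 animal's log2 ratio lay far from the other 3 (beyond Dixon's critical value for 4 samples) in 7 of 39 listed genes. Chance flags about 1 in 20 groups, but the share over all tested features was not computed. FNV's responses stood apart across all tested features, as given above, so the count is not read as a trait of the listed genes. FNV was that animal in 5 of the 7: PGD at -1.02, PGLS at -0.93, TKT at -1.15, TALDO1 at -0.67 and IDH1 at -2.11. The others were SLC2A3, at 1.75 in FTV, and RPIA, at 1.06 in FBR. By the same measure FNV stood apart in 5 of the 6 genes with an outlying unstimulated level and in 3 of the 4 with an outlying stimulated level. It was the highest unstimulated animal for TALDO1 (15.11), IDH1 (11.14) and IDH2 (13.08) and the lowest for ENO2 (10.58) and PDK1 (6.52). Earlier scanning, the higher monocyte and B cell marker sums and the lower T cell marker sum all go with FNV, and their part in these values was not tested.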

How the results depend on the processing

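The counts of calls moved most with the pairing on the self-self arrays, then with the normalisation and with animals left out. Median centring in place of loess gave 4127 called features, 5 rises and 2 falls. Leaving out each animal in turn gave 4967 to 11628 called features, 7 to 16 rises, 4 to 8 falls and 9 to 17 genes with levels that did not overlap. The 17 came without FNV, where levels did not overlap in 44.7% of all features. That share was not computed with another animal left out. The self-self arrays with a replicate block gave 7001 called features, and with no replicate block 1961, with 3 rises and 3 falls, so the paired fit made more calls. The 7 calls that median centring kept were all among the 18. The software's ratio, normexp with no offset, both detection filters, every probe, the array with conflicting labels left out and scan batch as a term kept all 18 calls of the gene-name-matched genes. For CD4 status, leaving out an animal gave 0 to 2 called features on the unstimulated level, 0 to 3025 on the stimulated level and 0 to 5 called members there. No called gene changed direction under any of these. Among genes that did not pass, SLC2A1 turned to -0.06 under median centring and -0.17 on the self-self arrays, HK1 to -0.02 on the self-self arrays and LDHB to 0.01 under median centring. With 1 animal left out, SLC2A1 ranged from -0.05 to 0.09, HK1 from -0.05 to 0.23, GAPDH from -0.07 to 0.37 and PGD from -0.27 to 0.16. The difference of PDK1 and PDK3 turned to 0.05 with the software's ratio and median centring and to 0.14 on the self-self arrays. The cause of these changes was not tested, apart from the loss of 1 animal where 1 was left out. Scan batch as a term takes FNV out of the estimate of the spread. The authors' deposited ratios were used as values only. Dim probes (SLC2A1, PFKFB3, PFKM, PDK1, PDK3, PGD and unstimulated SLC16A1) limit the sizes given: the SLC16A1 log2 ratio was 2.67 with no offset and 2.74 with the software's ratio.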
